A study of Danio rerio with 18 samples.

Results

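The first day after loss of the tail fin was examined by comparing amputated and freshly cut caudal fins of wild-type (WT) zebrafish. The comparison sets 3 RNA sequencing libraries of WT fins at 1 day post amputation (dpa) against 3 libraries of WT fins at 0 dpa, 6 of the 18 libraries of the series. Both groups came from the outbred Ekkwill (EK) strain, aged about 4 to 8 months, and were siblings of fish lacking s1, a regeneration-associated silencer. Each library was made from the fin clips of 10 pooled fish, so a value is an average over animals and the spread is that between pools. Fish were anaesthetised with 2-phenoxyethanol and their fins were cut with a scalpel at 50% of the original length. The sources used here do not say how much of the stump the 1 dpa clips held, so the stretch of fin sampled and the time cannot be told apart. The 12 libraries outside the comparison are WT fins at 4 dpa and silencer knockout (KO) fins at 0, 1 and 4 dpa. Genes were taken by a rule on level, a normalised read count of at least 10 in at least 3 of the 6 libraries, which 21692 of 32520 gene IDs met. A further 6174 IDs had no read in any of the 6 libraries.

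A cut zebrafish fin is sealed within hours by epidermal cells that migrate over the stump, and the multilayered wound epidermis that they form then signals to the tissue below. Under it, cells of the connective tissue and bone lose some of their mature features, divide and gather into the blastema, from which the fin rays regrow. A provisional matrix of fibronectin, tenascin and hyaluronan, arriving neutrophils and macrophages, and signals of the FGF, Wnt, activin, insulin-like growth factor and retinoic acid families are known features of this early period.

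The libraries held 94.3, 96.1 and 109 M reads in genes (M, 1e6) at 1 dpa and 115, 61.2 and 76.9 M at 0 dpa. The 5 most abundant genes, which carry no descriptive name, took 62.2%, 58.3% and 84.3% of these reads at 1 dpa, against 34.3%, 3.61% and 4.56% at 0 dpa. Reads in all other genes came to between 17.1 and 40.1 M at 1 dpa and between 59.0 and 75.5 M at 0 dpa. Mitochondrially encoded genes made up between 1.06% and 1.44% of those other reads at 1 dpa and between 1.86% and 2.07% at 0 dpa. WT 0 dpa replicate 1 stood apart from its group. Its Spearman correlation across genes was 0.940 and 0.951 with replicates 2 and 3, which reached 0.988 with each other. On the first principal component of the 6 libraries, which held 77.3% of the variance, it lay at 27.8, with the 1 dpa libraries between -102 and -71.7 and the other 0 dpa libraries at 106 and 120. The share of the 5 genes was thus higher on 1 dpa in every library, and the share and the day cannot be told apart from the groups alone. Many counts over gene lists are given beside those of other fits where these differ by over 1.5 times. One fit leaves out the libraries whose share was under 20% (the low-share libraries). It leaves WT 0 dpa with replicate 1 alone and assumes that it varies like the other groups. The other fit has the share as a covariate. Not every such difference is given, so a count given alone may also differ in these fits. Log2 changes of single genes are from the limma fit of all libraries unless another fit is named. FOSL1 and JUNB copy ENSDARG00000104773 are given from other fits and are outside the 164 genes counted next. Of the 164 called genes named below, 164 had the same sign in both other fits, and 57 had a log2 change that differed by over 1.5 times in at least 1 of them, which was nearer 0 for 53. The other values of these 57 genes close the paragraph that first gives them. The 164 are only a part of the genes picked, so their signs do not stand for all calls. Of all 9093 called genes, 581 changed sign with the share as a covariate. Among them are ABCC9, EIF1AD, ifi27.1, NOP10, nop16 and ndufc1, which were picked but are not described below. The agreement of sign among the 164 thus depends on which of the picked genes are described.

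At 1 dpa, 9093 of the 21692 genes (41.9%) differed from 0 dpa by the limma test at an adjusted p under 0.05, and such genes are called below. Of these, 4337 (20%) were higher and 4756 (21.9%) were lower at 1 dpa. A change of at least 2-fold was seen for 5866 called genes (27%), of which 2400 were higher and 3466 lower, and a change of at least 8-fold for 209 and 304. The 3 libraries of a day did not overlap with those of the other day for 11469 genes (52.9%). The median log2 change over all genes was -0.03, with quartiles of -0.76 and 0.55. These shares are the background for the gene groups that follow, since any group of genes would hold many calls in this comparison. Some lists, such as coagulation, metalloproteinase and glycolysis genes, had shares near those of all genes and do not stand out from them. Counts under the other fits have a smaller background. With the share as a covariate, 3226 of the 21692 genes were higher and 2617 lower, so a smaller list count there need not mean a lost excess. Without the low-share libraries 5470 genes were called, and with the share as a covariate 5843. Values below are normalised read counts in replicates 1, 2 and 3, log2 is the fitted change of log2(normalised count + 1) from limma (1 dpa minus 0 dpa), and adjusted p is by the Benjamini-Hochberg method over all 21692 genes. In bulk tissue, fewer cells of a type and less RNA per cell cannot be told apart. The plot of change against level shows how calls spread over the range of expression.

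**Figure D1:**
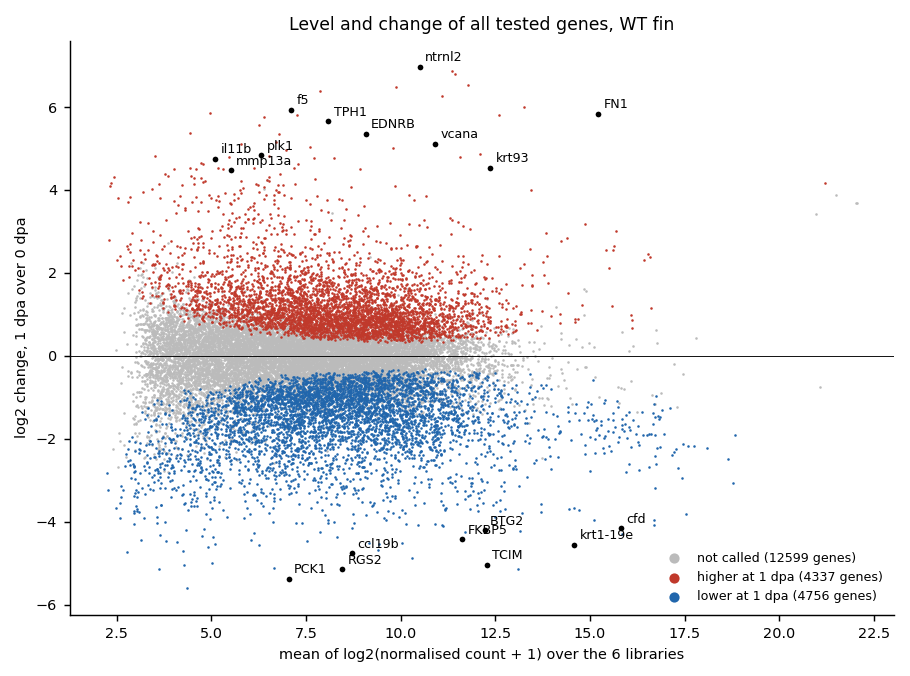
Mean level (horizontal axis) and log2 change of 1 dpa over 0 dpa (vertical axis) of the 21692 tested genes, with called genes coloured. Called genes lie on both sides of 0 over the whole range of levels, 4337 of them higher and 4756 lower at 1 dpa.

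The largest rises were found both in genes with few reads in the uncut fin and in genes already abundant there, such as the FN1 gene described below. ntrnl2 (ENSDARG00000105358) had 19464, 21032 and 10397 normalised counts at 1 dpa, against 65.2, 213 and 151 at 0 dpa (log2 6.97, SE 0.42, adjusted p = 9.99e-09). The genes of the largest rises and falls, and those picked from each gene list, were taken among genes whose days did not overlap. The gap between their days thus follows from the choice, except for key genes named whatever their values. SALL1 (copy ENSDARG00000075891), a zinc finger transcription factor used in limb development, had 505, 618 and 469 at 1 dpa, against 7.03, 9.83 and 15 at 0 dpa (log2 5.56, SE 0.29, adjusted p = 3.35e-09). TPH1 (copy ENSDARG00000036082), the first enzyme of serotonin synthesis, had 2300.5, 1827 and 1723 at 1 dpa, against 28.1, 43.2 and 43.2 at 0 dpa (log2 5.65, SE 0.24, adjusted p = 2.04e-10). pnocb, which encodes the precursor of the neuropeptide nociceptin, rose as well (log2 5.16, adjusted p = 3.35e-08), as did cmn, the gene of the matrix protein calymmin (log2 5.04, adjusted p = 8.67e-08). EDNRB (copy ENSDARG00000053498), an endothelin receptor, averaged 3496 ± 689 at 1 dpa and 83.3 ± 6.39 at 0 dpa (SD, n = 3 each), and its log2 change was 5.36.

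Several of the largest falls were in genes that were abundant in the uncut fin. PCK1 (ENSDARG00000013522), which commits the cell to making glucose, had 28.3, 7.88 and 31.9 normalised counts at 1 dpa, against 522, 1141 and 1017 at 0 dpa (log2 -5.37, SE 0.54, adjusted p = 2.42e-06). RGS2, which shortens G protein signals, had 66.8, 59.1 and 49.3 at 1 dpa, against 731, 3314 and 3787 at 0 dpa (log2 -5.15, adjusted p = 1.37e-05). For RGS2 and many other falling genes, 0 dpa replicate 1 lay below the other 0 dpa libraries. It still lay above all 1 dpa libraries, which for genes picked without overlap, such as RGS2, follows from the choice. TCIM (copy ENSDARG00000076858), a small regulator linked to Wnt and NF-kB signalling, had 921, 833 and 845 at 1 dpa, against 11221, 30992 and 66354 at 0 dpa (log2 -5.04, adjusted p = 3.32e-05). RBP4, the plasma carrier of retinol, averaged 13261 ± 1713 at 1 dpa and 309880 ± 180320 at 0 dpa, with a log2 change of -4.30. The plot of values by library shows these genes with others described below. RGS2 had a log2 change of -3.63 without the low-share libraries and -3.27 with the share as a covariate, TCIM of -3.69 and -3.31, and RBP4 of -2.96 and -2.61.

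**Figure D2:**
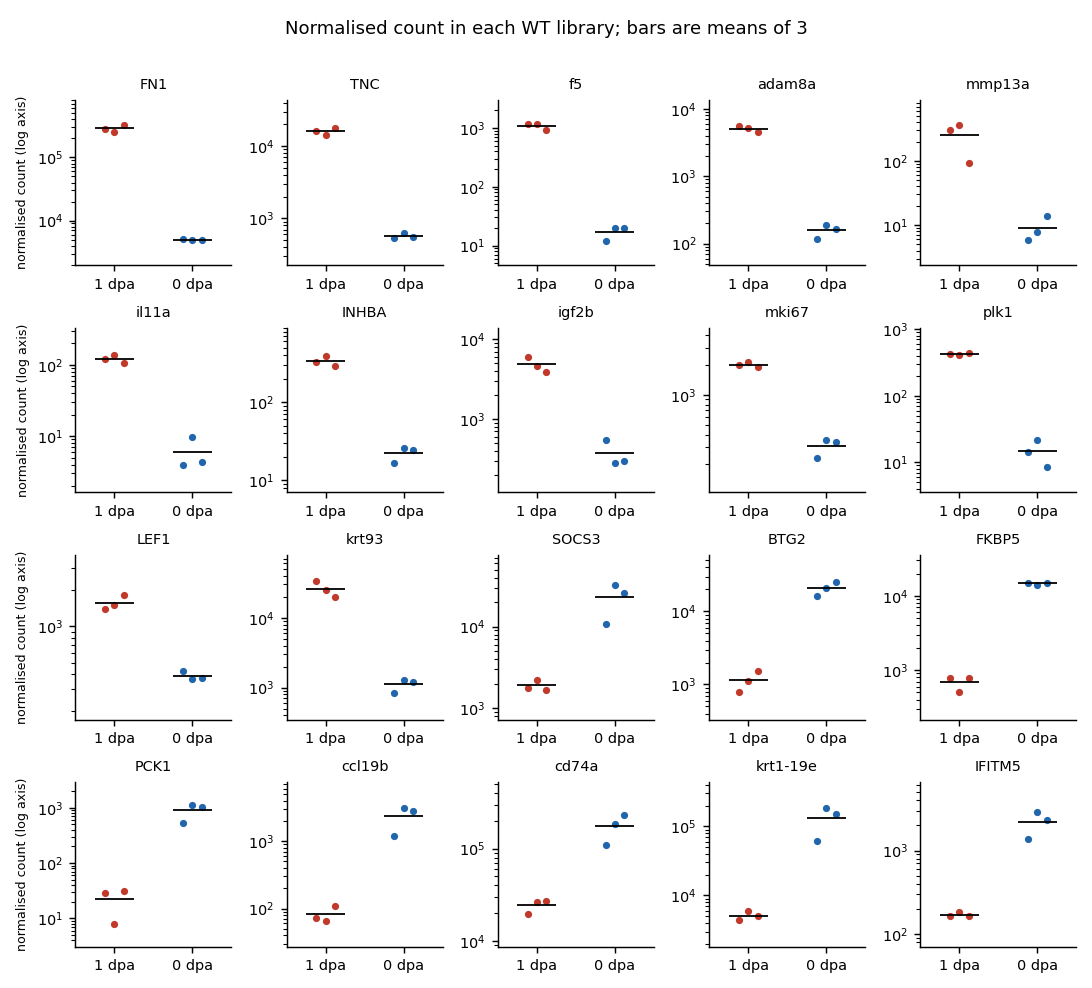
Normalised count (vertical log axes) of 20 genes in each WT library, 1 dpa on the left and 0 dpa on the right of each panel, with a bar at the mean of 3. In each panel the points of the 2 days lie apart, and most of these genes were picked among genes whose days did not overlap. The lowest 0 dpa point among genes that fell is often replicate 1.

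Of 40 tested genes of the provisional matrix, 15 were higher and 15 lower at 1 dpa (median log2 0.43). The lower count was 9 without the low-share libraries and 9 with the share as a covariate. Both copies of FN1, the gene of fibronectin, rose. Copy ENSDARG00000006526 had 283030, 254860 and 326620 normalised counts at 1 dpa, against 5167, 4869 and 4969.8 at 0 dpa, a mean 57.6-fold higher (log2 5.84, SE 0.32, adjusted p = 4.25e-09). Copy ENSDARG00000019815 had 42839, 41702 and 50453 at 1 dpa, against 2929.5, 2743 and 2675 at 0 dpa (log2 4.01, SE 0.23, adjusted p = 6.84e-09). Tenascin C is an anti-adhesive matrix glycoprotein that is laid down in wounds. Its TNC copy ENSDARG00000021948 had 16055, 14150 and 18124 at 1 dpa, against 538, 628 and 553 at 0 dpa (log2 4.81, SE 0.23, adjusted p = 1.17e-09), while copy ENSDARG00000078362 changed by a log2 of 0.98 (adjusted p = 0.00667). The large proteoglycan versican (vcana) had 12401, 10616 and 11297 at 1 dpa, against 306, 348 and 329 at 0 dpa (log2 5.12, SE 0.20, adjusted p = 1.31e-10). HAS2, which makes hyaluronan, the sugar polymer that versican binds, rose by less (log2 1.18, adjusted p = 9.30e-04). The matrix cell-signalling gene THBS1 (copy ENSDARG00000010785) rose (log2 1.76, adjusted p = 4.85e-06), and NID2, a basement membrane linker, rose 6.96-fold (log2 2.79, adjusted p = 8.83e-08). In these genes every 1 dpa library lay above every 0 dpa library, which for vcana, THBS1 and NID2 follows from how they were picked. Among the lower members, CCN2, a matricellular protein, had 870.4, 1125 and 829 at 1 dpa, against 2814, 4502 and 3843 at 0 dpa (log2 -1.97, adjusted p = 1.78e-05). The galectin gene lgals1l1 had 110.3, 98.5 and 139 at 1 dpa, against 403, 1364 and 1687 at 0 dpa (log2 -3.08, adjusted p = 0.002), and it was not called with the share as a covariate. HAS2 had a log2 change of 0.78 without the low-share libraries and 1.05 with the share as a covariate, and lgals1l1 of -1.80 and -1.25.

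Receptors for this matrix did not move as 1 group: 9 of 28 integrin genes were higher and 5 lower (median log2 0.54). With the share as a covariate 8 were higher and 7 lower, and the median turned to -0.02. ITGA5, an alpha chain that binds fibronectin, had 4848, 4519.7 and 4820.3 normalised counts at 1 dpa, against 1992, 1092 and 1243 at 0 dpa (log2 1.76, adjusted p = 2.35e-05), ITGA4 had 852, 807 and 672 at 1 dpa, against 218, 110.1 and 141 at 0 dpa (log2 2.36, adjusted p = 1.35e-06), and ITGB3 (copy ENSDARG00000045070) changed by a log2 of 2.35 (adjusted p = 8.41e-06). ITGB1, the beta chain that pairs with ITGA5 and ITGA4, has 4 copies that went different ways. Copy ENSDARG00000104484 rose (log2 2.92), copy ENSDARG00000022689 fell (log2 -1.54), and copies ENSDARG00000053232 and ENSDARG00000071863 did not pass the test (log2 0.31 and 0.37, adjusted p = 0.336 and 0.159). The collagen receptor chains ITGA10 and ITGA11 (copy ENSDARG00000036086) fell, with log2 changes of -1.19 and -1.20. With 1 library left out at a time, between 8 and 13 integrins were higher. ITGB1 copy ENSDARG00000104484 had a log2 change of 1.96 without the low-share libraries and 1.58 with the share as a covariate.

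Many collagen genes of the fin's connective tissue and bone fell: 17 of 34 were lower and 3 higher (median log2 -0.60), and 15 were lower without the low-share libraries. COL10A1 (copy ENSDARG00000054753), a collagen of hypertrophic cartilage and of fish osteoblasts, had 2163, 2136 and 2238 normalised counts at 1 dpa, against 11175, 26541 and 23576 at 0 dpa (log2 -3.13, SE 0.42, adjusted p = 3.84e-05). In each 1 dpa library it lay below every 0 dpa library, which follows from how it was picked. The fibril collagen genes col5a2b and col5a3b had log2 changes of -2.22 and -2.13, and COL2A1 (copy ENSDARG00000011407), the main collagen of cartilage, -1.65. COL12A1, a collagen that binds fibril surfaces, was an exception: copy ENSDARG00000078322 had 30298, 24998 and 36505 at 1 dpa, against 8141, 5498 and 5686 at 0 dpa (log2 2.25, adjusted p = 8.94e-06). Of 37 genes that process and secrete collagen, 13 were higher and 7 lower. PLOD2, a lysyl hydroxylase that prepares collagen for cross-linking, averaged 1890.3 ± 360.4 at 1 dpa and 434 ± 96.5 at 0 dpa (log2 2.13, adjusted p = 1.26e-06), while LOXL4 (copy ENSDARG00000025089), a lysyl oxidase relative, fell (log2 -2.43, adjusted p = 8.70e-07). COL10A1 had a log2 change of -2.36 without the low-share libraries and -1.83 with the share as a covariate, and COL2A1 of -0.81 and -0.90.

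Several proteases that cut matrix and cell surface proteins rose. Of 36 ADAM and ADAMTS proteases and their inhibitors, 14 were higher and 1 lower (median log2 0.29), and with the share as a covariate 8 were higher and 5 lower (median log2 -0.01). The sheddase gene adam8a (ENSDARG00000001452) had 5542, 5167 and 4487 normalised counts at 1 dpa, against 116, 189 and 167 at 0 dpa (log2 5.02, SE 0.20, adjusted p = 1.31e-10), and its paralogue adam8b rose too (log2 2.61). TIMP2 (copy ENSDARG00000075261), an inhibitor of metalloproteinases, had 8052, 6678 and 4523 at 1 dpa, against 317, 490.4 and 509 at 0 dpa (log2 3.86, SE 0.24, adjusted p = 1.63e-08). The days did not overlap in any of these genes, which follows from how they were picked. The 1 member that fell was ADAMTS8 (copy ENSDARG00000058252, log2 -1.72). Among 21 matrix metalloproteinases, 6 were higher and 5 lower, with 3 lower without the low-share libraries. The collagenase mmp13a had 299.8, 358 and 91.3 at 1 dpa, against 5.86, 7.86 and 13.7 at 0 dpa (log2 4.48, adjusted p = 2.07e-05), with 1 dpa replicate 3 lower than the others and still above the 0 dpa libraries. The gelatinase MMP9, already abundant in uncut fins, averaged 10168 ± 2099.9 at 1 dpa and 3389.9 ± 224 at 0 dpa (log2 1.56, adjusted p = 3.92e-06). MMP17 fell (log2 -1.80), and so did the enamel protease gene mmp20a (log2 -3.66). ADAMTS8 had a log2 change of -2.35 without the low-share libraries and -2.75 with the share as a covariate.

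Coagulation genes went both ways, with 6 higher and 7 lower of 25 tested (median log2 -0.27). These are 24% and 28%, near the 20% and 21.9% of all tested genes. The gene of factor V, f5 (ENSDARG00000055705), a cofactor in thrombin formation that is made mainly in the liver, had 1173, 1171 and 927 normalised counts at 1 dpa, against 11.7, 19.7 and 20.2 at 0 dpa (log2 5.94, SE 0.22, adjusted p = 1.31e-10). The factor VIII gene f8 averaged 716 ± 135 at 1 dpa and 209 ± 77.6 at 0 dpa (log2 1.82, adjusted p = 1.19e-04). Tissue factor starts clotting at a cut, and its gene f3b fell to 100.2, 128 and 104 at 1 dpa, against 504, 950.2 and 764 at 0 dpa (log2 -2.69, adjusted p = 1.75e-05). The higher count was 3 without 1 dpa replicate 1 and 3 without 0 dpa replicate 3, and the lower count was 4 with the share as a covariate.

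Ligands known from wounds and regenerating fins were higher in 22 of 51 cases and lower in 14 (median log2 0.43). The lower count was 6 without the low-share libraries and 8 with the share as a covariate. Interleukin-11 is a cytokine that signals through STAT3. Its gene il11a (ENSDARG00000037859) had 123, 139.9 and 106 normalised counts at 1 dpa, against 3.91, 9.83 and 4.32 at 0 dpa (log2 4.23, SE 0.38, adjusted p = 7.39e-07), and il11b had 193, 235 and 123 at 1 dpa, against 4.69, 3.93 and 9.37 at 0 dpa (log2 4.75, SE 0.38, adjusted p = 1.92e-07). The hormone leptin shares this receptor class, and lepb averaged 742 ± 397 at 1 dpa and 89.1 ± 44.7 at 0 dpa (log2 3.02, adjusted p = 6.05e-04). STAT3 itself did not pass the test (log2 0.43, adjusted p = 0.127). SOCS3 (copy ENSDARG00000025428), a feedback inhibitor whose gene STAT3 is known to switch on, fell to 1778, 2229 and 1682 at 1 dpa, against 10680, 32787 and 25736 at 0 dpa (log2 -3.47, SE 0.39, adjusted p = 6.51e-06). In the whole list of the interleukin-6 family and STAT3 pathway, 10 of 24 were higher and 5 lower (median log2 0.56), and without the low-share libraries 2 were lower. The members that moved thus include both a ligand pair that rose and a feedback inhibitor that fell. lepb had a log2 change of 4.00 without the low-share libraries and 4.53 with the share as a covariate.

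Activin A, a dimer of INHBA chains, is needed for growth of the fin blastema. INHBA copy ENSDARG00000024759 had 332, 386 and 293 normalised counts at 1 dpa, against 16.4, 25.6 and 24.5 at 0 dpa (log2 3.88, SE 0.20, adjusted p = 2.40e-09), and copy ENSDARG00000012671 had 2565, 2952 and 1614 at 1 dpa, against 299, 588 and 520.2 at 0 dpa (log2 2.35, SE 0.28, adjusted p = 1.18e-05). TGFB2, a related ligand, rose as well (log2 2.1, adjusted p = 1.91e-05). Among 72 genes of the BMP, TGF-beta and activin pathways, 26 were higher and 16 lower (median log2 0.36). Of these, 16 were higher with the share as a covariate and 9 lower without the low-share libraries. The targets id2b and ID4, inhibitors of basic helix-loop-helix transcription factors, were lower (log2 -3.75 and -2.70). The insulin-like growth factor gene igf2b (ENSDARG00000033307) had 6055, 4626 and 3924 at 1 dpa, against 539.9, 279 and 297 at 0 dpa (log2 3.75, SE 0.26, adjusted p = 5.35e-08). id2b had a log2 change of -2.60 without the low-share libraries and -2.19 with the share as a covariate, and ID4 of -1.89 and -1.44.

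FGF ligands differed among themselves, and 7 of 27 pathway genes were higher and 8 lower (25.9% and 29.6%, against 20% and 21.9% of all tested genes). FGF20 (copy ENSDARG00000007356), 1 of 2 copies with this symbol, had 102, 146 and 58.0 normalised counts at 1 dpa, against 3.52, 12 and 5.76 at 0 dpa (log2 3.72, adjusted p = 3.32e-05). The other copy, ENSDARG00000086070, was below the level rule, and the names used here do not tell which copy is fgf20a, a ligand whose loss blocks fin regeneration in zebrafish. FGF3 had 113, 65.7 and 98.5 at 1 dpa, against 9.38, 12 and 10.1 at 0 dpa (log2 3.0, adjusted p = 1.07e-05). FGF16 and FGF18 (copy ENSDARG00000088048) fell, with log2 changes of -2.58 and -1.44. The feedback inhibitor genes of FGF signalling split, with SPRY1 at 127, 109.7 and 139 at 1 dpa, against 32, 7.86 and 2.88 at 0 dpa (log2 3.59, adjusted p = 2.32e-04), and SPRY2 at 222, 214 and 229 at 1 dpa, against 548, 976 and 899 at 0 dpa (log2 -1.82, adjusted p = 1.64e-05). DUSP4, a phosphatase that acts on MAP kinases, rose (log2 2.16). The EGF family gene epgn fell (log2 -2.94). With the share as a covariate, 4 FGF pathway genes were higher. FGF16 had a log2 change of -1.78 without the low-share libraries and -1.70 with the share as a covariate, SPRY1 of 1.93 and 2.05, DUSP4 of 1.36 and 1.01, and epgn of -1.59 and -1.18.

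Wnt pathway genes were higher in 22 and lower in 10 of 68 cases (median log2 0.27), with 15 to 28 higher when 1 library was left out at a time. With the share as a covariate 15 were higher and 9 lower, and the median turned to -0.03. WNT10A, a ligand of the fin epidermis, had 1116, 1048 and 1065 normalised counts at 1 dpa, against 685, 320.4 and 316 at 0 dpa (log2 1.39, adjusted p = 5.22e-04). WNT5A, which signals mainly without beta-catenin, had 401, 413 and 388 at 1 dpa, against 54.7, 30.5 and 56.2 at 0 dpa (log2 3.11, adjusted p = 3.88e-06). WNT11 fell (log2 -1.80), and so did WNT16 (log2 -1.93). The gene of beta-catenin, CTNNB1, averaged 7372 ± 709 at 1 dpa and 2574 ± 91.2 at 0 dpa (log2 1.51, adjusted p = 3.83e-05). LEF1, its partner on DNA and a marker of the basal wound epidermis, had 1388, 1487 and 1797 at 1 dpa, against 425, 367 and 372 at 0 dpa (log2 2.0, SE 0.17, adjusted p = 3.57e-07), and TCF7, another partner, rose by less (log2 1.09). Among Notch genes (10 higher and 3 lower of 27), the ligand jag1a averaged 6538 ± 348 at 1 dpa and 1488 ± 44.4 at 0 dpa (log2 2.13, adjusted p = 7.27e-07), while the ligand dlc fell (log2 -1.95). The higher Notch count was 5 without the low-share libraries, 5 and 6 without 0 dpa replicates 2 and 3, and 6 without 1 dpa replicate 3. GLI2 (copy ENSDARG00000025641), a transcription factor of hedgehog signalling, rose (log2 1.84). Both copies of SHH, a hedgehog ligand, were below the level rule. WNT10A had a log2 change of 0.65 without the low-share libraries and 0.77 with the share as a covariate.

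Retinoic acid genes were lower in 11 and higher in 4 of 29 cases, and 6 were lower without the low-share libraries, 4 and 4 without 0 dpa replicates 2 and 3, and 6 without 1 dpa replicate 2. The enzyme that makes the signal went up: ALDH1A2 (ENSDARG00000053493) had 528, 493 and 443 normalised counts at 1 dpa, against 86.7, 124 and 133 at 0 dpa (log2 2.1, SE 0.22, adjusted p = 3.34e-06). Cellular retinoic acid binding proteins carry it inside the cell. CRABP2 copy ENSDARG00000030449 had 2836, 2653 and 2124 at 1 dpa, against 481, 348 and 427 at 0 dpa (log2 2.60, adjusted p = 9.96e-09), and copy ENSDARG00000073978 had 2286, 2207 and 2107 at 1 dpa, against 5317, 8928 and 6634 at 0 dpa (log2 -1.63, adjusted p = 3.10e-04), so the copies changed in opposite directions. CRABP2 copy ENSDARG00000073978 had a log2 change of -1.27 without the low-share libraries and -0.85 with the share as a covariate.

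Of 43 transcription factors known from blastema and regeneration, 17 were higher and 7 lower (median log2 0.25). SOX11 (copy ENSDARG00000077811) had 2545, 2791 and 2333 normalised counts at 1 dpa, against 299.6, 271 and 263 at 0 dpa (log2 3.19, SE 0.16, adjusted p = 1.76e-09). RUNX2, the master factor of osteoblasts that also acts in other tissues, had 6997, 6261 and 6305 at 1 dpa, against 2917, 1289 and 1264 at 0 dpa (log2 1.95, adjusted p = 2.04e-04). The SP8 copies, which act in limb and fin epidermis, changed in opposite directions (copy ENSDARG00000056666 log2 2.88, copy ENSDARG00000011870 log2 -1.41). msx1b, a marker of the later blastema, had 1434, 1418 and 877 at 1 dpa, against 875, 1676 and 1331 at 0 dpa. It did not pass the test (log2 -0.04, adjusted p = 0.929). In the limma fit with the share as a covariate it was called higher (log2 1.01, adjusted p = 2.02e-04). RUNX2 had a log2 change of 1.16 without the low-share libraries and 1.17 with the share as a covariate, SP8 copy ENSDARG00000056666 of 1.62 and 2.28, and SP8 copy ENSDARG00000011870 of -0.82 and -0.73.

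Most immediate early genes, the first to be transcribed when a cell is stimulated, were lower a day after the cut than in the freshly cut fin. In this list 25 of 38 were lower and 6 higher (median log2 -1.39), and 21 were lower without the low-share libraries. FOSB, a partner in the AP-1 factor, had 539, 683 and 703 normalised counts at 1 dpa, against 8351, 9846 and 6987 at 0 dpa (log2 -3.70, SE 0.36, adjusted p = 1.61e-06). BTG2, an antiproliferative gene, had 788, 1109.6 and 1546 at 1 dpa, against 16387, 20927 and 25107 at 0 dpa (log2 -4.21, SE 0.28, adjusted p = 3.04e-08). The stress gene GADD45B (copy ENSDARG00000027744) and the factor csrnp1a fell too, with log2 changes of -3.70 and -4.25. Each 0 dpa library of these genes lay above every 1 dpa library, which follows from how they were picked. The exceptions included fosl1b and JUNB copy ENSDARG00000074378 (log2 1.01). fosl1b had 142, 125 and 84.0 at 1 dpa, against 15.2, 25.6 and 25.2 at 0 dpa (log2 2.36, adjusted p = 0.00246). By edgeR, JUNB copy ENSDARG00000104773 and FOSL1 had negative log2 changes (-0.82 and -1.07). In limma these were -0.06 and 0.10 without the low-share libraries. With the share as a covariate they were -0.19 and -0.05, and neither gene was called. FOSL1 was also not called by limma with all libraries. The stress factor ATF3 was lower (log2 -1.40) and was not called without the low-share libraries, with the share as a covariate, or without 1 dpa replicate 3 or 0 dpa replicate 2. fosl1b had a log2 change of 2.83 without the low-share libraries and 3.77 with the share as a covariate. In these fits JUNB copy ENSDARG00000074378 had 1.72 and 1.37, and ATF3 -0.44 and -0.38.

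Genes known to respond to glucocorticoids were lower in 19 of 28 cases and higher in 3 (median log2 -1.61), with 14 lower without the low-share libraries. FKBP5 (ENSDARG00000028396), a chaperone partner of the glucocorticoid receptor and a sensitive target of it, had 789, 511 and 789.6 normalised counts at 1 dpa, against 14868, 14177 and 15114 at 0 dpa (log2 -4.43, SE 0.45, adjusted p = 2.53e-06). CEBPD, a factor of the acute phase response, had 2782, 4238 and 4052 at 1 dpa, against 29159, 60745 and 66173 at 0 dpa (log2 -3.75, adjusted p = 2.53e-06). The 0 dpa libraries of FKBP5 lay within a narrow band, and those of CEBPD did not. Of 43 clock genes, 16 were lower and 6 higher, and with the share as a covariate 21 were lower and 3 higher. The repressor gene nr1d2a had 508, 429 and 713 at 1 dpa, against 4856, 11028 and 14572 at 0 dpa (log2 -4.10, adjusted p = 2.63e-05), and usp2b, a clock-controlled protease, fell too (log2 -4.51), while the activators BMAL1 (copy ENSDARG00000035732) and bmal2 rose (log2 1.39 and 1.36). The sources used here give no hour of collection, so the time of day and the day after amputation cannot be told apart for these genes. BMAL1 had a log2 change of 0.82 without the low-share libraries and 0.79 with the share as a covariate.

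Immune genes did not move together. Of 23 neutrophil markers, 12 were higher and 4 lower (median log2 1.07). The chemokine receptor cxcr1 had 43.6, 57.2 and 37.7 normalised counts at 1 dpa, against 3.13, 7.86 and 0 at 0 dpa (log2 3.81, adjusted p = 0.00122), and c5ar1, the receptor of complement fragment C5a, had 119, 92.6 and 120.2 at 1 dpa, against 22.3, 21.6 and 15.8 at 0 dpa (log2 2.42, adjusted p = 5.94e-06). Among the lower members, cyba, a subunit of the oxidase that makes superoxide, had 1376, 1586 and 862 at 1 dpa, against 2688, 8415 and 6215 at 0 dpa (log2 -2.07, adjusted p = 0.00395), and lyz, the gene of lysozyme, had 8.71, 17.7 and 7.24 at 1 dpa, against 35, 79.6 and 81.4 at 0 dpa (log2 -2.44, adjusted p = 0.0154). The call of lyz was lost without the low-share libraries, with the share as a covariate, and without 1 dpa replicate 3, 0 dpa replicate 2 or 0 dpa replicate 3. The summed level of the list overlapped between days (24867 to 41375 at 1 dpa and 21065 to 54507 at 0 dpa), and 1 gene, nccrp1, held 58.7% of it. Of the lower neutrophil genes, 0 stayed lower with the share as a covariate. Macrophage markers were higher in 11 and lower in 6 of 37 cases, and with the share as a covariate 23 were higher and 3 lower. Their summed level was 59741 to 66459 at 1 dpa and 141230 to 297520 at 0 dpa, without overlap, and cd74a, described below, held 68.2% of it. The receptor csf1ra, needed for macrophages and also expressed in pigment cells, had 1304, 1359 and 1652 at 1 dpa, against 566, 243 and 286 at 0 dpa (log2 2.07, adjusted p = 4.05e-04). GPNMB, a lysosomal glycoprotein of phagocytes and pigment cells, rose (log2 2.03). ARG2, an arginase, fell to 727, 688 and 406 at 1 dpa, against 3226, 5679 and 6705 at 0 dpa (log2 -3.08, adjusted p = 3.17e-05), and cd74b, an invariant chain gene like cd74a, fell as well (log2 -3.26). The pan-macrophage gene MPEG1 did not pass the test in either named copy (ENSDARG00000055290 log2 0.20, ENSDARG00000043093 log2 0.16). cyba had a log2 change of -1.12 without the low-share libraries and -0.51 with the share as a covariate, lyz of -1.66 and -1.06, csf1ra of 1.34 and 0.93, ARG2 of -2.46 and -2.0, and cd74b of -2.30 and -1.77.

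Many genes of lymphocytes and of antigen presentation fell. Of 34 lymphocyte markers, 18 were lower and 2 higher (median log2 -0.79), with 10 lower without the low-share libraries, 9 with the share as a covariate, 11 and 10 without 1 dpa replicates 1 and 2, and 11 without 0 dpa replicate 2. The T cell coreceptor gene cd8a had 26.1, 57.8 and 58.0 normalised counts at 1 dpa, against 217, 404 and 352 at 0 dpa (log2 -2.79, adjusted p = 6.30e-04). Of 28 antigen presentation genes, 18 were lower and 0 higher (median log2 -1.17), with 10 lower without the low-share libraries, 8 with the share as a covariate and 10 without 0 dpa replicate 2. The invariant chain gene cd74a (ENSDARG00000009087), which guides MHC class II molecules, had 19469, 26136 and 27235 at 1 dpa, against 109190, 185470 and 233750 at 0 dpa (log2 -2.81, SE 0.35, adjusted p = 1.75e-05). The class II gene mhc2dab had 473, 731 and 820.0 at 1 dpa, against 4604, 10402 and 11999 at 0 dpa (log2 -3.66, adjusted p = 5.48e-05). Each 1 dpa library of these genes lay below every 0 dpa library, which for cd8a and mhc2dab follows from how they were picked. cd8a had a log2 change of -2.26 without the low-share libraries and -1.55 with the share as a covariate, and mhc2dab of -2.81 and -2.39.

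Genes of chemokines and their receptors were lower in 22 of 46 cases and higher in 3 (median log2 -1.07). With the share as a covariate 6 were higher. The lower count was 10 without the low-share libraries and 12 with the share as a covariate. ccl19b had 71.1, 65.7 and 110.1 normalised counts at 1 dpa, against 1196, 3106 and 2816 at 0 dpa (log2 -4.75, SE 0.55, adjusted p = 1.04e-05), and CXCL12, which guides CXCR4-bearing cells, had 1077, 1129 and 950.4 at 1 dpa, against 3447, 3511 and 3241 at 0 dpa (log2 -1.69, adjusted p = 4.50e-07). Among 45 cytokine and NF-kB genes, 10 were higher and 17 lower, and 9 were lower without the low-share libraries. The NF-kB inhibitor gene nfkbiab, itself an NF-kB target, averaged 1324 ± 184 at 1 dpa and 15979 ± 7961 at 0 dpa (log2 -3.43, adjusted p = 1.84e-05). The early cytokine genes il1b and cxcl8a did not pass the test: il1b had 213, 215 and 232 at 1 dpa, against 71.9, 191 and 171 at 0 dpa, and cxcl8a had 152, 225 and 122 at 1 dpa, against 96.1, 222 and 157 at 0 dpa. tnfa, the gene of tumour necrosis factor, was lower, with 10, 1.31 and 0 at 1 dpa, against 35, 132 and 56.2 at 0 dpa (log2 -4.46, adjusted p = 0.00386), and it was not called without the low-share libraries or with the share as a covariate. Prostaglandin genes split, with PTGES higher (log2 2.25) and both PTGS2 copies lower (log2 -1.54 and -1.51). STING1, a relay of the interferon response, rose (log2 1.43), while 8 of 44 interferon genes were higher and 15 lower in all. Those counts were 4 and 6 without the low-share libraries, and 5 and 9 without 1 dpa replicate 3, 5 and 9 without 0 dpa replicate 2, and 5 and 8 without 0 dpa replicate 3. Of 29 complement genes, 11 were higher and 4 lower, with 7 higher without the low-share libraries and 8 lower without 0 dpa replicate 1. The complement gene c4b rose (log2 2.23), and cfd, complement factor D, averaged 13702 ± 1444 at 1 dpa and 288680 ± 168480 at 0 dpa (log2 -4.15, adjusted p = 1.28e-04). nfkbiab had a log2 change of -2.38 without the low-share libraries and -2.21 with the share as a covariate, tnfa of -3.61 and -2.48, PTGS2 copy ENSDARG00000004539 of -0.93 and -0.87, and cfd of -2.84 and -2.19.

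In the epidermis, keratin genes changed in opposite directions, 4 higher and 6 lower of 20 tested (20% and 30%, against 20% and 21.9% of all tested genes). Their median log2 of -0.60 turned to 0.44 without the low-share libraries and 0.90 with the share as a covariate, where 9 were higher and 5 lower. krt93 (ENSDARG00000044976) had 33162, 25244 and 19681 normalised counts at 1 dpa, against 841, 1276 and 1219 at 0 dpa (log2 4.54, SE 0.31, adjusted p = 3.50e-08), and krt18a.1, a keratin of simple epithelia, had 189100, 183730 and 96986 at 1 dpa, against 9559.7, 28276 and 23617 at 0 dpa (log2 3.01, SE 0.45, adjusted p = 1.05e-04). krt94 rose as well (log2 3.19). krt1-19e fell to 4358, 5888 and 5064 at 1 dpa, against 61127, 182180 and 151210 at 0 dpa (log2 -4.55, SE 0.62, adjusted p = 4.19e-05), and krt15, a keratin of basal cells, to 66271, 80889 and 48730 at 1 dpa, against 255280, 509090 and 555190 at 0 dpa (log2 -2.70, adjusted p = 1.35e-04). The basal keratin gene krt5 did not pass the test (log2 -0.45, adjusted p = 0.309). The basal epidermis list had 11 higher and 6 lower of 25, with 7 higher without the low-share libraries and 7 without 0 dpa replicate 3. TP63, the factor that maintains basal cells, had 9474, 8999 and 8966 at 1 dpa, against 6380.2, 5409.6 and 5092 at 0 dpa (log2 0.71, adjusted p = 0.00328). Laminin-332 anchors basal cells and is laid down by migrating keratinocytes, and the gene of its beta chain, lamb3, rose (log2 1.96). col17a1a, a collagen of the hemidesmosome, fell to 693, 935 and 1037 at 1 dpa, against 3660.4, 4776 and 4490 at 0 dpa (log2 -2.29, adjusted p = 1.11e-06). krt15 had a log2 change of -2.0 without the low-share libraries and -1.64 with the share as a covariate, and TP63 of 0.52 and 0.41.

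Outer epidermis markers were lower in 13 and higher in 3 of 38 cases, with 6 lower without the low-share libraries and 8 without 0 dpa replicate 2. With the share as a covariate 8 were lower and 8 higher. Claudins seal tight junctions, and the list of claudin and tight junction genes was lower in 17 of 33 cases and higher in 0 (median log2 -0.93). With the share as a covariate 10 were lower (median log2 -0.41). Without the low-share libraries the median log2 was -0.49. cldnb had 13140, 13442 and 11252 normalised counts at 1 dpa, against 36811, 131240 and 132630 at 0 dpa (log2 -2.78, adjusted p = 8.92e-04), with 0 dpa replicate 1 far below the other 0 dpa libraries. Desmosome genes split: DSP (copy ENSDARG00000022309, desmoplakin) and PKP1 rose (log2 1.22 and 1.5), and pkp2 and PPL (periplakin) fell (log2 -2.45 and -1.38). For cell movement, 27 of 83 actin and migration genes were higher and 21 lower. The gene actr3, part of the Arp2/3 complex that branches actin, had 1887, 1909 and 2522 at 1 dpa, against 573, 226 and 333 at 0 dpa (log2 2.57, SE 0.46, adjusted p = 4.71e-04). The actin monomer binders pfn1 and tmsb1 fell (log2 -2.42 and -3.19). The lower count of this list was 11 without the low-share libraries. cldnb had a log2 change of -1.55 without the low-share libraries and -1.09 with the share as a covariate, DSP of 0.86 and 0.71, PPL of -1.0 and -0.70, actr3 of 1.86 and 1.11, pfn1 of -1.39 and -0.86, and tmsb1 of -1.87 and -0.87.

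Most genes of mitosis rose. Of 71 genes of mitosis and the kinetochore, 55 were higher and 1 lower (median log2 1.61), with 56 higher without the low-share libraries and 51 to 54 when 1 library was left out at a time. plk1 (ENSDARG00000058471), the kinase that drives entry into mitosis, had 425, 409 and 435 normalised counts at 1 dpa, against 14.1, 21.6 and 8.65 at 0 dpa (log2 4.83, SE 0.27, adjusted p = 6.77e-09). mki67, the source of the proliferation marker Ki-67, had 2007, 2134 and 1914 at 1 dpa, against 234, 355 and 339 at 0 dpa (log2 2.72, SE 0.18, adjusted p = 2.68e-08), and CDK1 had 777, 723 and 475 at 1 dpa, against 81.6, 106 and 106 at 0 dpa (log2 2.72, SE 0.33, adjusted p = 1.42e-05). All 3 genes had every 1 dpa library above every 0 dpa library, which for plk1 follows from how it was picked. The 1 lower gene was PRC1 (copy ENSDARG00000100918, log2 -1.87), a bundler of the spindle's midzone, and it was not called without the low-share libraries. Of 71 genes of cell cycle entry and DNA replication, CDK1 among them, 29 were higher and 1 lower (median log2 0.43). With the share as a covariate 45 were higher. Without 0 dpa replicate 1, 5 were lower. MCM3, a part of the replicative helicase, had 635, 633 and 1052 at 1 dpa, against 176, 74.7 and 79.3 at 0 dpa (log2 2.88, adjusted p = 3.34e-04). GMNN, an inhibitor of origin licensing, was the 1 that fell (log2 -2.16), and CCND1, cyclin D1, did not pass the test (log2 -0.13, adjusted p = 0.614). Cell cycle inhibitors and p53 targets were lower in 22 of 45 cases and higher in 6, with 13 lower without the low-share libraries and 3 higher without 0 dpa replicate 2. The proapoptotic gene pmaip1 (Noxa) averaged 142 ± 13.6 at 1 dpa and 3637 ± 1769 at 0 dpa (log2 -4.53, adjusted p = 6.66e-06). PRC1 had a log2 change of -0.85 without the low-share libraries and -0.77 with the share as a covariate, MCM3 of 2.09 and 1.25, and GMNN of -1.38 and -1.17.

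For protein synthesis and energy, the counts differed with the treatment of the share of the 5 dominant genes. They also differed when single libraries were left out. Of 69 genes of cytosolic ribosomal proteins, 59 were lower and 0 higher (median log2 -1.68). Without the low-share libraries 8 were lower (median log2 -0.71), and with the share as a covariate 1 was lower and 1 higher (median log2 -0.15). The lower count was 21 without 1 dpa replicate 3, and 20 and 26 without 0 dpa replicates 2 and 3. rplp2, of the ribosomal stalk, had 29571, 32988 and 20666 normalised counts at 1 dpa, against 77437, 282560 and 211330 at 0 dpa (log2 -2.61, adjusted p = 0.00276), so 0 dpa replicate 1 lay between the 1 dpa libraries and the other 0 dpa libraries. Nuclear genes of oxidative phosphorylation were lower in 35 and higher in 3 of 74 cases (median log2 -1.30), but lower in 0 and higher in 25 with the share as a covariate, where their median turned to 0.36. Without the low-share libraries 5 were lower and 8 higher (median log2 -0.29). The lower count was 21 and 4 without 1 dpa replicates 1 and 3, and 58, 2 and 3 without 0 dpa replicates 1, 2 and 3. Most of the lower calls of both lists were thus lost without the low-share libraries, and the plot of calls under 3 fits shows them beside other lists. Proteasome genes were higher in 8 and lower in 1 of 42 cases, and higher in 17 without the low-share libraries and 36 with the share as a covariate. Without 0 dpa replicate 1, 7 were lower. With all libraries, the 19% called higher was near the 20% of all tested genes, and the median log2 was -0.04. PSMD1 and PSMD11 (copy ENSDARG00000060150), of the regulatory particle, rose (log2 1.26 and 1.49). rplp2 had a log2 change of -1.51 without the low-share libraries and -0.75 with the share as a covariate.

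**Figure D3:**
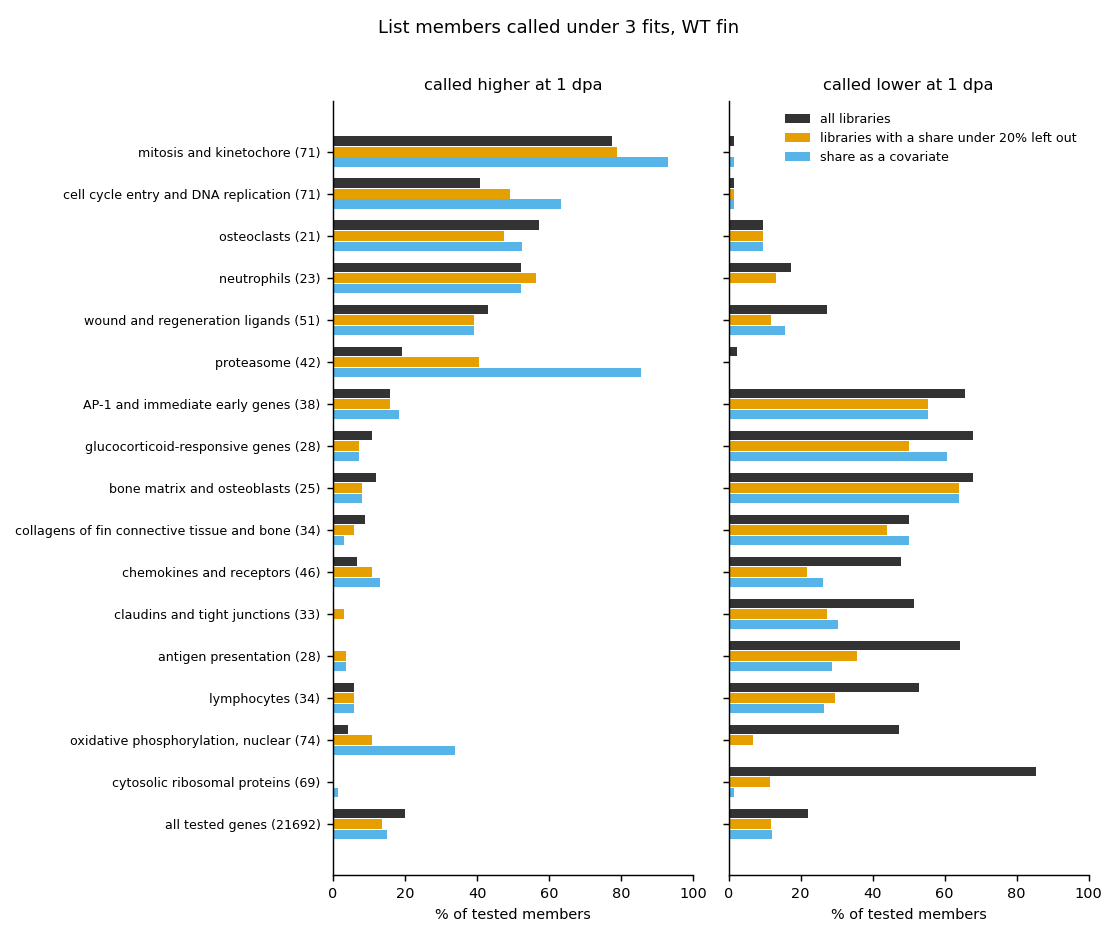
Share of the tested members of 16 gene lists and of all tested genes (horizontal axes, %) called higher or lower at 1 dpa, with all libraries, without the libraries of a share under 20%, and with the share as a covariate. The lower bars of the immediate early and bone lists exceed those of all tested genes in each fit, whereas the lower bars of ribosomal protein and oxidative phosphorylation genes shrink.

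Of 55 genes of the unfolded protein response and the secretory pathway, 21 were higher and 5 lower (median log2 0.31). With the share as a covariate 32 were higher and 1 lower. The lower count ran between 1 without 1 dpa replicate 3 or 0 dpa replicate 2 or 3 and 10 without 0 dpa replicate 1. The chaperone genes of the endoplasmic reticulum CANX and calr3b averaged 12964 ± 1158 and 6766 ± 819.8 at 1 dpa, and 3917 ± 758 and 1448 ± 984 at 0 dpa. SSR1, part of the complex at the protein-conducting channel, had 5414, 3938 and 5422 normalised counts at 1 dpa, against 891, 391 and 510.1 at 0 dpa (log2 3.11, adjusted p = 2.89e-06). Ribosome assembly genes were higher in 18 and lower in 6 of 68 cases (29 higher with the share as a covariate), with UTP20 at a log2 of 2.0 (adjusted p = 4.24e-04), and 0 were lower without the low-share libraries, 1, 1 and 2 without 1 dpa replicate 3 and 0 dpa replicates 2 and 3, and 13 without 0 dpa replicate 1. Sterol and fatty acid synthesis genes were lower in 17 and higher in 7 of 44 cases, with 11 lower without 0 dpa replicate 3. HSD17B7, an enzyme of sterol synthesis, had 1465, 1506 and 1318 at 1 dpa, against 9204, 14556 and 19727 at 0 dpa (log2 -3.27, adjusted p = 1.93e-06). Glycolytic genes were 10 higher and 9 lower of 42, and 2 were lower without the low-share libraries and 2 without 0 dpa replicate 3, against 4 without 1 dpa replicate 1, 1 dpa replicate 3 or 0 dpa replicate 2. PKM (copy ENSDARG00000099730), which makes pyruvate, had 7508, 6247 and 8561 at 1 dpa, against 2082, 955 and 1336 at 0 dpa (log2 2.41, adjusted p = 8.72e-05). Of 48 genes of oxidative stress and hypoxia, 9 were higher and 17 lower (median log2 -0.51). Without the low-share libraries 8 were higher and 7 lower, and with the share as a covariate 15 were higher and 9 lower (median log2 0.02). NQO1, a quinone reductase of the antioxidant response, had 560.4, 558 and 510.0 at 1 dpa, against 1400.1, 3299 and 2679 at 0 dpa (log2 -2.09, adjusted p = 0.00181). HIF1A, the oxygen-sensitive factor, and NDRG1 (copy ENSDARG00000032849), a hypoxia marker, rose (log2 1.62 and 2.04). calr3b had a log2 change of 1.38 without the low-share libraries and 1.52 with the share as a covariate, UTP20 of 1.11 and 0.90, PKM of 1.82 and 1.31, NQO1 of -1.37 and -0.75, and HIF1A of 1.27 and 1.07.

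Most genes of bone matrix fell, and most genes of the osteoclast list rose. The osteoclast list shares genes that rose, such as mmp13a, ITGB3 and csf1ra, with the neutrophil, integrin or macrophage lists. Its count is thus not particular to osteoclasts. Of 25 bone matrix and osteoblast genes, 17 were lower and 3 higher (median log2 -0.96), with 16 lower without the low-share libraries. IFITM5 (ENSDARG00000105153), a membrane protein of osteoblasts, had 164, 184 and 164 normalised counts at 1 dpa, against 1389, 2849.8 and 2344 at 0 dpa (log2 -3.62, SE 0.39, adjusted p = 4.44e-06). ENTPD5, an enzyme needed for mineralisation in zebrafish, had 180.0, 179 and 225 at 1 dpa, against 2153, 3979.8 and 2949 at 0 dpa (log2 -3.92, SE 0.26, adjusted p = 2.75e-08), and SP7 (osterix), a factor of committed osteoblasts, had 237, 192 and 177 at 1 dpa, against 384, 373 and 304 at 0 dpa (log2 -0.81, adjusted p = 0.00308). The tendon gene TNMD fell (log2 -2.40). The 3 higher ones included RUNX2, named above, and enpp1, which makes the mineralisation inhibitor pyrophosphate (log2 1.23). Of 21 osteoclast genes, 12 were higher and 2 lower (median log2 0.72), and 10 were higher without the low-share libraries. The fusion gene ocstamp had 56.6, 65.7 and 52.2 at 1 dpa, against 1.56, 7.86 and 2.88 at 0 dpa (log2 3.73, adjusted p = 1.36e-05), while the bone protease gene CTSK did not pass the test (log2 0.14, adjusted p = 0.764). In the limma fit with the share as a covariate, CTSK was called higher (log2 0.90, adjusted p = 0.0303). The actinotrichia gene and1, which marks new fin ray fibres, had 893, 886 and 1143 at 1 dpa, against 552, 948 and 880.4 at 0 dpa (adjusted p = 0.336). Its log2 change was 0.32, against 0.81 without the low-share libraries and 0.50 with the share as a covariate.

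Markers of the other cell types that a fin holds went both ways. Fibroblast markers were higher in 5 and lower in 10 of 30 cases (10 higher without the low-share libraries), and their summed level was 77792 to 87810 at 1 dpa and 71077 to 81779 at 0 dpa. PDGFRA, a receptor of mesenchymal cells, averaged 1421 ± 37.9 at 1 dpa and 693 ± 16.7 at 0 dpa (log2 1.04, adjusted p = 1.5e-04). The small proteoglycan gene BGN (copy ENSDARG00000017884) averaged 398 ± 22.8 at 1 dpa and 2150.3 ± 544 at 0 dpa (log2 -2.40, adjusted p = 1.07e-05), and mfap5, a component of elastic microfibrils, fell (log2 -2.47). The summed level of the nerve and Schwann cell markers was 12793 to 14238 at 1 dpa and 25104 to 36615 at 0 dpa, with 3 of 29 tested members higher and 7 lower. PMP22, of the myelin sheath, and plp1b fell (log2 -2.36 and -2.62), and gap43, a gene of growing axons, rose (log2 1.47). Endothelial markers had 8 higher and 4 lower members of 32: robo4 rose (log2 3.41), and lyve1a, of lymphatic vessels, fell (log2 -2.12). Mural cell markers had 3 higher and 8 lower of 20, among them the pericyte gene RGS5 (log2 -1.66). Of 27 iridophore and xanthophore markers, 14 were lower and 4 higher, with 4 lower without the low-share libraries. Of 23 melanocyte markers, 1 was higher and 4 were lower, with 0 lower with the share as a covariate, 6 without 0 dpa replicate 1 and 2 without any other single library of the 2 days. The thrombocyte list had 6 higher and 1 lower of 13, the erythrocyte list 4 and 2 of 20, the ionocyte list 5 and 6 of 32, and the mucous cell list 5 and 3 of 20. Of all tested genes, 20% were higher and 21.9% lower. Endothelial markers had 25% and 12.5%, erythrocyte 20% and 10%, ionocyte 15.6% and 18.8%, and mucous 25% and 15%. Melanocyte markers had 4.35% and 17.4%. These shares are near or below those of all genes, and the lists do not stand out by an excess of calls. Skeletal muscle markers, of 21 tested, had 6 higher and 2 lower, at a summed level of 1690.3 to 1734 at 1 dpa and 1187 to 1328 at 0 dpa. With 1 library left out at a time, the higher count ran from 5 to 8 for endothelial, 3 to 6 for muscle, 3 to 7 for mucous, 3 to 6 for ionocyte and 2 to 6 for erythrocyte markers. The lower count ran from 2 to 7 for endothelial, 5 to 7 for mural and 9 to 16 for iridophore and xanthophore markers. The erythrocyte count was lowest without 1 dpa replicate 3 or 0 dpa replicate 3. With the share as a covariate, 4 mural and 0 mucous markers were lower, and 2 mucous, 4 thrombocyte and 4 muscle markers were higher. The part of cell composition in the gene groups above was not tested. The plot of list medians sets all groups beside the quartiles of all genes. BGN had a log2 change of -1.95 without the low-share libraries and -1.57 with the share as a covariate, mfap5 of -1.65 and -1.0, robo4 of 2.56 and 1.97, and lyve1a of -1.26 and -0.98.

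**Figure D4:**
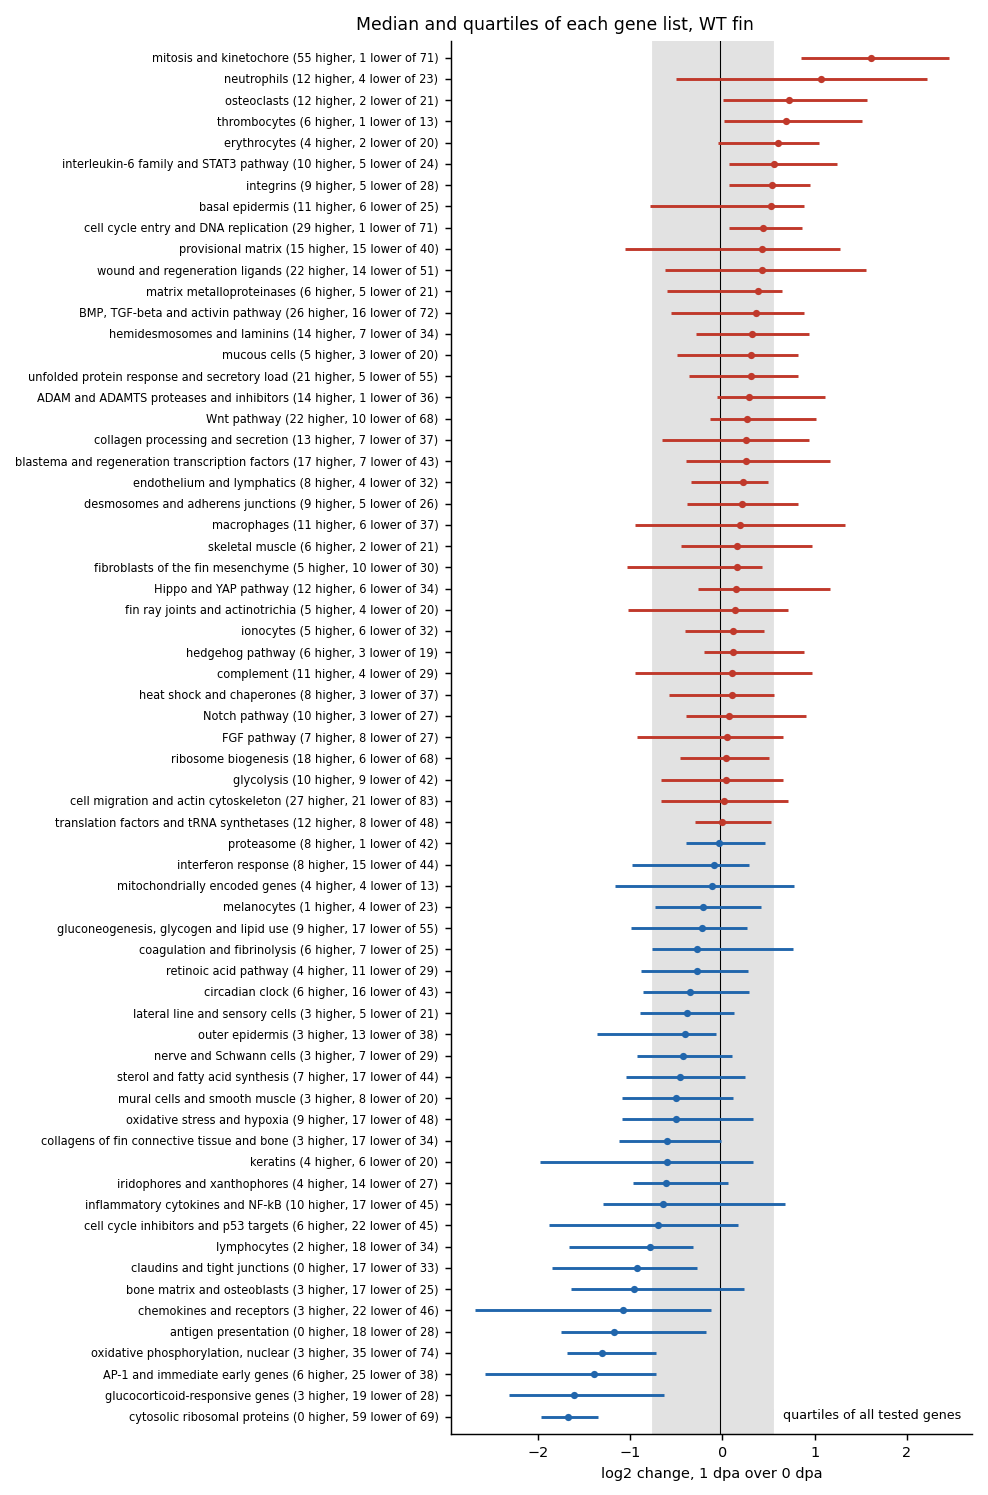
Median (point) and quartiles (bar) of the log2 change of 1 dpa over 0 dpa among the tested members of each gene list, with numbers of members called higher and lower, red for a median above 0 and blue for a median below. The grey band marks the quartiles of all tested genes (-0.76 and 0.55). The quartiles of the mitosis list lie above it, and neutrophil and osteoclast genes are among those with medians above it. Lists with medians below it include ribosomal protein, glucocorticoid-responsive, immediate early, oxidative phosphorylation, antigen presentation and chemokine genes.

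Values at 4 dpa, when the fin is growing out, were set beside those of the first day. The 4 dpa comparison shares its 0 dpa libraries with the one above, so only values are set side by side. The WT 4 dpa libraries had the highest shares of the dominant genes in the series, 88.1%, 90.5% and 87.5%. Their reads in all other genes came to 10.9, 10.6 and 10.5 M. The share and the day thus cannot be told apart at 4 dpa either, and the part of the share in these values was not tested. EDNRB had means of 83.3, 3496 and 187 normalised counts at 0, 1 and 4 dpa, and krt93 means of 1112, 26029 and 3313. These were highest at 1 dpa. The TNC copy ENSDARG00000021948 had means of 573, 16110 and 33291 at 0, 1 and 4 dpa, and and1 means of 794, 974 and 221540, both highest at 4 dpa. COL10A1 (copy ENSDARG00000054753) had means of 20431, 2179 and 28585, and IFITM5 2194, 171 and 1467, with their lowest values at 1 dpa.

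The same day was measured in silencer knockout fins with separate libraries, 3 at 1 dpa and 3 at 0 dpa. In KO fins 6678 genes (30.8%) were called, 3523 higher and 3155 lower at 1 dpa. Of the WT calls, 5234 were also called in KO in the same direction, 57.6% of the WT list and 78.4% of the KO list, and 0 were called in opposite directions. The FN1 copy ENSDARG00000006526 had a log2 change of 5.84 in WT and 5.64 in KO, and for plk1 these were 4.83 and 5.1. IFITM5 had -3.62 in WT and -3.15 in KO, and FKBP5 -4.43 and -3.90. A test of the difference between genotypes (interaction in limma) called 0 of 21692 genes, with 922 at an unadjusted p under 0.05, and DESeq2 called 5. In WT, 59 of 69 ribosomal protein genes and 35 of 74 oxidative phosphorylation genes were lower, against 9 and 1 in KO, and no member of either list passed the interaction test. WT had no low-share library on 1 dpa and 2 on 0 dpa, and KO had 1 on each day. The part of the share in these counts was not tested. The mitosis list had 55 higher members in WT and 64 in KO, and the bone list 17 lower members in WT and 15 in KO.

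**Figure D5:**
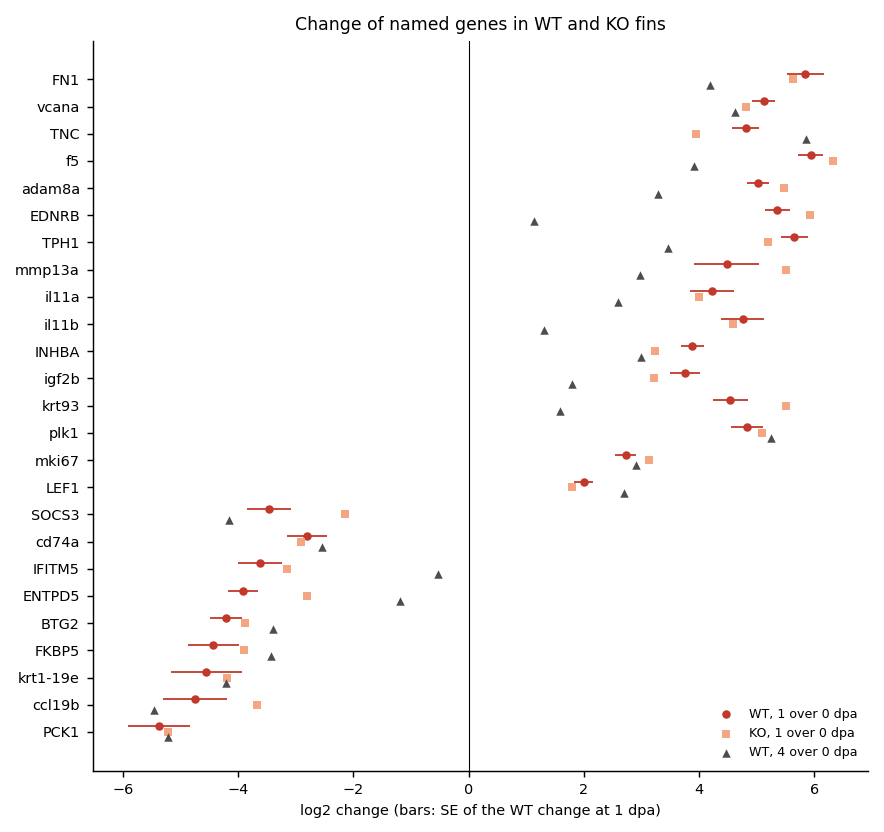
Log2 change (horizontal axis) of 25 named genes for WT at 1 over 0 dpa (circles, bars are SE), KO at 1 over 0 dpa (squares) and WT at 4 over 0 dpa (triangles, sharing the WT 0 dpa libraries). Squares lie on the same side of 0 as the circles for each gene, and the triangles of EDNRB, IFITM5 and ENTPD5 lie much nearer 0 than their circles.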

How the data were processed

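RNA of pooled caudal fin clips was read as paired ends after Tn5 tagging of amplified cDNA, per the labels' protocols. STAR 2.7.10 was the aligner and danRer11 the genome, with Trim Galore 0.6.7 and cutadapt 3.5 as trimmers, per the submitters' processing notes. Each value of the deposited table is a signal, the read count of a gene divided by the authors' size factor for the library, and 100% of values were whole reads within 0.001 once the factor was undone. No source used here names the gene annotation or the strand setting, and genes that overlap, antisense ones included, could share reads.

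The change was tested with limma 3.58.1 (R 4.3.3) with a mean-variance trend on log2(signal + 1), 2-sided, with all 18 libraries as 6 groups sharing 1 estimate of the spread, and adjusted p under 0.05 over 21692 genes. Fold changes on this scale understate low genes. edgeR 4.0.16 and DESeq2 1.42.0 were run on the whole reads as alternatives. Libraries are separate pools, per the labels, so replicates are biological. On simulated data of this comparison with 21692 genes, 200 of them changed, limma made 3 false calls, edgeR 3 and DESeq2 33. Limma recovered 22% of the genes changed 2-fold, 74% of those changed 4-fold and 98% of those changed 8-fold. The 200 changed genes are far fewer than the 9093 called in the real data. The false calls thus do not give the error rate of the real calls, and the recovery rates do not give the power of the real test. The simulation also does not show how the share of the dominant genes affects calls.

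Symbols come from a gene-name table that names 29201 of 32520 IDs. IDs that share a symbol (6136) are called copies, their reads may be shared, and their values are uncertain. Gene lists (65, with 2541 entries, 144 unmatched) and the comparison itself were chosen with earlier results of these data known. Named genes are the 15 largest rises and 15 largest falls without overlap and with a mean of at least 50. Added to these are up to 3 called genes per list and direction, also without overlap, and a set of key genes whatever their values. The text names fewer.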

Additional observations from a re-analysis of the deposited data

How the results depend on the processing

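Beside the 9093 calls reported for 1 dpa, other fits gave 5843 calls with the share of the 5 dominant genes as a covariate (2617 of them lower, 2781 at least 2-fold), 5470 without the low-share libraries (2526 lower, 3071 at least 2-fold) and 15659 with array weights and no trend (7350 higher, 8309 lower), whose estimation stopped before convergence. Of the 9093 calls, 43.0% were kept with the covariate and 581 changed sign, 0 of these as calls in the other direction. Leaving out 1 library at a time gave between 5993 and 10874 calls, and between 2952 and 5770 lower genes, the fewest without 0 dpa replicate 2. Without 0 dpa replicate 2 there were 2952 lower genes and without replicate 3 there were 3122. edgeR called 9413 genes and DESeq2 10333. In KO fins array weights gave 14320 calls. The interaction, 0 in limma, gave 5 calls with DESeq2, 1 with the share as a covariate, 1 without the low-share libraries and 8701 with array weights. msx1b turned to a log2 of 1.01 with the share as a covariate and was called there. The cause of these shifts was not tested. As the labels' replicate numbers recur on both days, a replicate block was fitted and gave 8076 calls. Deviations of same-numbered libraries from their group means had correlations across genes of -0.109, 0.302 and -0.192. Those of differently numbered libraries ran from -0.329 to 0.329. Deviations from a mean of 3 libraries sum to 0, so these values cannot decide whether the numbers pair the libraries. A fit of the 1 and 0 dpa libraries alone without 0 dpa replicate 1, added after the data were seen, gave 12834 calls. The planned count of promoter motifs was not run because no promoter sequence was used here. Among the WT libraries of 0 and 1 dpa, depth limits low genes most in 1 dpa replicate 3, which had 17.1 M reads outside the dominant genes.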
